A study of Mus musculus with 14 samples.

Results

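The regions described here are stretches of chromatin that had an ATAC-seq peak in every Nfibf/f cell line and in none of the RPR2 lines, called Nfibf/f-only regions below. They were chosen by merging the peak intervals of all 14 libraries on chromosomes 1 to 19 and X (1 bp of overlap) and keeping regions with a peak in all 8 libraries of the 4 Nfibf/f lines and in 0 of the 6 libraries of the 3 RPR2 lines. Of 177577 merged regions, 763 met the rule, which is 0.43% of all regions. For comparison, 1446 regions were open in the 3 RPR2 lines and closed in the 4 Nfibf/f lines (RPR2-only), 21732 were open in all 4 Nfibf/f lines whatever the RPR2 lines did, and 17795 were open in all 7 lines. Because presence and absence of peaks chose the regions, the difference between the genotypes in peak calls is a description here and was not tested.

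The lines came from mouse small cell lung cancers, and the study asks which routes to metastasis depend on the transcription factor NFIB and which do not. RPR2 is the field's name for a model in which the tumour suppressors Rb1, Trp53 and Rbl2 are deleted, and all 7 lines carry this background. The 4 RPR2;Nfibf/f lines also carry the Nfibf/f allele, by convention a conditional allele of Nfib on both chromosomes. Of these, 1398M1 and 1399M4 were grown from liver metastases, and lung tumors gave 1398P2 and 1399P1. The 3 RPR2 lines were 1373M1, from a liver metastasis, and 12N1G and N2N1G, from lymph node metastases. The labels give neither the promoter that drives the recombinase nor the animals' age. Separate cultures for the 2 libraries of a line are not stated either, and their spread may therefore be technical only. All Nfibf/f lines bear the number 1398 or 1399, and no RPR2 line came from a lung tumor, so genotype cannot be told apart from line number and only in part from tissue.

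ATAC-seq uses a transposase that cuts accessible DNA, so a peak marks a site where nucleosomes were displaced, most often a promoter or an enhancer. NFIB belongs to the nuclear factor I family, which binds a palindromic site and is known in this cancer for opening distal enhancers during progression to metastasis.

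Libraries held 64975 to 84199 peaks, except 1398P2 replicate 2 with 33519. The mean number of fragments per base, solved from the authors' fold enrichment and p-values, was 0.632 to 1.13 in 13 libraries and 0.507 in 1398P2 replicate 2. Gene ends of 8 of 10 neuroendocrine genes had a peak in all 14 libraries, while Scg3 had none and Neurod1 lacked one in 1 library. Of the hepatocyte markers, Alb and Afp had none, Ttr had one in 5 libraries and Apob in 10. Of the leukocyte markers, Ptprc had none, Csf1r had one in 1 library and Cd3e in 3, all of them Nfibf/f. The endothelial marker Pecam1 had none and the fibroblast gene Pdgfrb had one in 3, but the lung epithelial genes Sftpc and Foxj1, the fibroblast gene Col1a1 and the endothelial gene Kdr had one in all 14. A peak shows accessibility and not expression. The targeted genes Nfib, Rb1, Trp53 and Rbl2 kept such a peak in every library, and 0 of these 4 genes held an Nfibf/f-only region. RPR2-only regions, with a peak in every RPR2 and in no Nfibf/f library, numbered 3 within 10 kb of Nfib and 1 within 10 kb of Rb1. Whether the 3 lie in the stretch of Nfib that the allele removes was not tested.

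Promoters were a small share of the set, but they are the members whose sequence was given by the reference used here, and 6 are shown for that reason. The 4 protein-coding genes with the highest ranks are followed by Krt7 and Nfix, at the low end. Each line holds the 250 bases before the listed transcription start, 5′ to 3′ on the strand of the gene, from RefSeq for GRCm38.p6. Capitals mark the motifs found by the search described below, and Arhgef38, Krt7 and Nfix have none in these bases.
Arhgef38: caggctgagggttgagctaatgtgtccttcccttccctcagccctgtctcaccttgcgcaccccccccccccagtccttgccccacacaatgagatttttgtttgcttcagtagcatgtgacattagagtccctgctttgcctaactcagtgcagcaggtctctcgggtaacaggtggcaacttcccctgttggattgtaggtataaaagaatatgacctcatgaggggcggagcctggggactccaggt
Arhgef2: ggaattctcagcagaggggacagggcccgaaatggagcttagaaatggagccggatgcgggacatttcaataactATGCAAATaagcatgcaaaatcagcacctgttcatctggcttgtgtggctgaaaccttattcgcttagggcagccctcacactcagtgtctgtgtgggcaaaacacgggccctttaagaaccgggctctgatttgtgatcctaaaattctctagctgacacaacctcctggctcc
Stx1a: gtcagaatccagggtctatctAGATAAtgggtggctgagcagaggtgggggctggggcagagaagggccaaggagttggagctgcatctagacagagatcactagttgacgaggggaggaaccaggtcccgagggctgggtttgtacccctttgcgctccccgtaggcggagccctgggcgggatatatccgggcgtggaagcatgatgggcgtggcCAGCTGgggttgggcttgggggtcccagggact
Naip2: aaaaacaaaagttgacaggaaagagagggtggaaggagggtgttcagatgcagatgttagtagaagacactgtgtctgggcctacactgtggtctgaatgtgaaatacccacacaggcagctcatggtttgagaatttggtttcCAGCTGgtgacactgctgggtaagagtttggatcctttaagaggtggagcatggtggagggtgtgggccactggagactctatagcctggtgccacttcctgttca
Krt7: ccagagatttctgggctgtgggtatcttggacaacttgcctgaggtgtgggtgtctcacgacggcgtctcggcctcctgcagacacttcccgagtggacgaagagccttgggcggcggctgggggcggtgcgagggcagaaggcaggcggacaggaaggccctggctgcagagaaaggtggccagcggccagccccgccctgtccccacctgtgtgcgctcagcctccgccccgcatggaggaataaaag
Nfix: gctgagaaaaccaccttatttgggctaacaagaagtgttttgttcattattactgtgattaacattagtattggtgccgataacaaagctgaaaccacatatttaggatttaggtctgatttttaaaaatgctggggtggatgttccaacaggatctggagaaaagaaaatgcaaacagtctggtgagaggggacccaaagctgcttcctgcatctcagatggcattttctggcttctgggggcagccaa
The stretches are chr3:133234950-133235199 on the minus strand, chr3:88615893-88616142 on the plus strand, chr5:135023232-135023481 on the plus strand, chr13:100202123-100202372 on the minus strand, chr15:101412153-101412402 on the plus strand and chr8:84772876-84773125 on the minus strand, all in GRCm38. The merged region covered all 250 bases at Arhgef38, Arhgef2, Stx1a and Krt7, 194 at Naip2 and 90 at Nfix. The capitals are an octamer of POU factors in Arhgef2, a GATA motif and a CAGCTG E-box in Stx1a, and a CAGCTG E-box in Naip2.

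Most Nfibf/f-only regions lay away from promoters. Within 1 kb of either end of a protein-coding gene were 44 of the 763 (5.77%, Wilson 95% interval 4.32 to 7.65%), against 4.56% of RPR2-only regions (3.60 to 5.77%) and 55.2% of regions open in all 7 lines. The gene body of a protein-coding gene contained or overlapped 495 (64.9%, 61.4 to 68.2%), against 54.6% and 78.9%. The remaining 261 (34.2%) lay between protein-coding genes and more than 1 kb from their ends. The median distance to the nearest listed transcription start was 25749 bp, close to the 28200 bp of RPR2-only regions and far from the 649 bp of regions open in all 7 lines. These intervals cover counting error only, and regions of 1 set share their libraries. The members had to have peaks in 8 libraries and the RPR2-only regions in 6, so the sets were not chosen with equal stringency, and the differences between them were not tested.

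**Figure D1:**
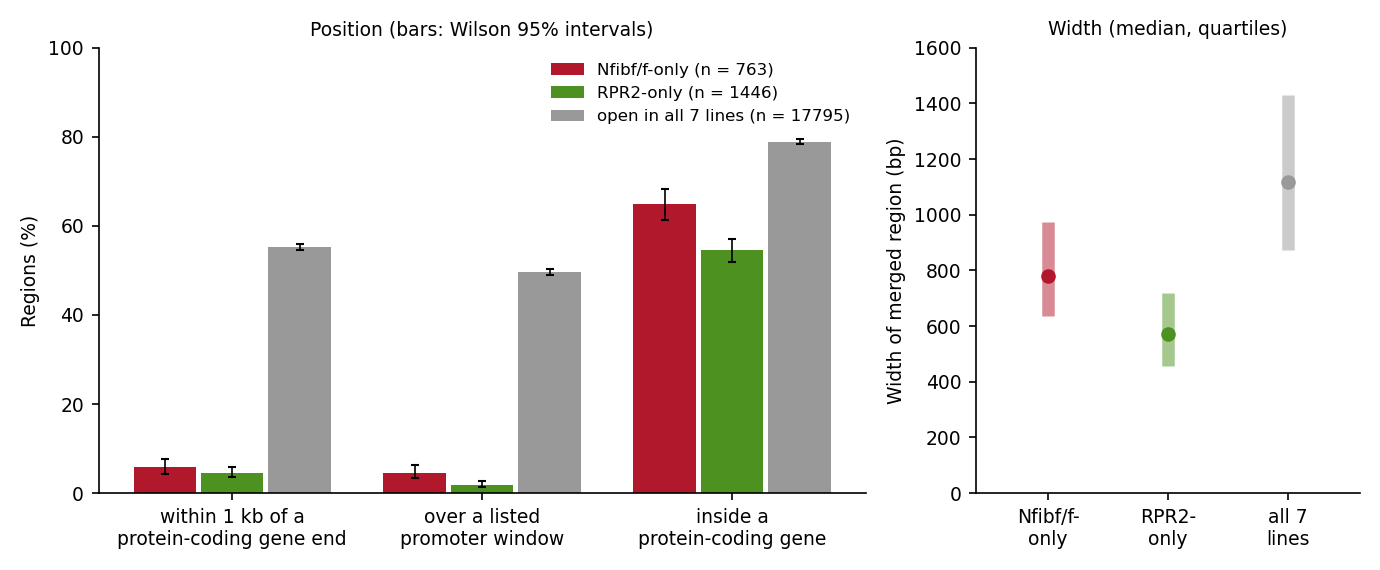
Position and width of the 763 Nfibf/f-only regions, the 1446 RPR2-only regions and the 17795 regions open in all 7 lines. Bars give the percent of regions in each position with Wilson 95% intervals, and dots and boxes give the median and quartiles of the width in bp; the Nfibf/f-only regions stand at 5.77% near gene ends against 55.2% for regions open in all 7 lines.

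Width followed the same order. The merged regions had a median width of 780 bp (280 to 2527 bp), against 570 bp in RPR2-only regions and 1119 bp in regions open in all 7 lines, and the median width of a member's own peaks was 476 bp, against 384 and 799 bp. Over regions open in at least 1 line the median width of the merged region was 604 bp. A merged region grows with the number of libraries that add a peak to it. Peaks of all 8 Nfibf/f libraries shared at least 1 base in 718 of the 763 (94.1%), and the shared stretch had a median of 213 bp, or 29.6% of the region. In the other 45 no base was covered by all 8 libraries, and whether lines or only single libraries differed in site there was not tested. The highest summits of the 8 libraries lay within 100 bp of each other in 355 members (46.5%), against 47.5% of regions open in all 4 Nfibf/f lines. In the other measures the members overlapped less between libraries than those regions did. Every library covered at least 50% of the region in 118 members (15.5%, against 34.1%), and the shared stretch of the comparison regions had a median of 383 bp, or 38.9% of the region.

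A single library accounted for most regions that missed the rule on the Nfibf/f side. A further 1272 regions had a peak in 7 of 8 Nfibf/f libraries and in 0 of 6 RPR2 libraries, and 827 of them lacked a peak only in 1398P2 replicate 2, the library with the fewest peaks. Next came 1398M1 replicate 1 with 176 and 1399M4 replicate 2 with 116, while 1398P2 replicate 1 accounted for 1. On the other side, 339 regions had 8 of 8 Nfibf/f peaks and a single RPR2 peak, which was in 1373M1 replicate 1 for 147 and in 1373M1 replicate 2 for 53. The single RPR2 peak ranked low, with a median rank percentile of 13.5. The regions just inside and just outside the rule had median ranks of 57.9 (members), 49.5 (7 of 8) and 59.6 (8 of 8 with 1 RPR2 peak). Without 1398P2 replicate 2 the rule kept 1590 regions, without line 1373M1 1608, without line 1398M1 1689 and without line 1398P2 1701. Counting a library's peaks only where they covered at least 50% of the merged region, in RPR2 libraries too, gave 231 regions, with 118 of the 763. Taking the same number of peaks, 33519, from every library gave 424, with 124 of the 763. Both settings also discard some RPR2 peaks, so neither is simply a stricter form of the rule.

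**Figure D2:**
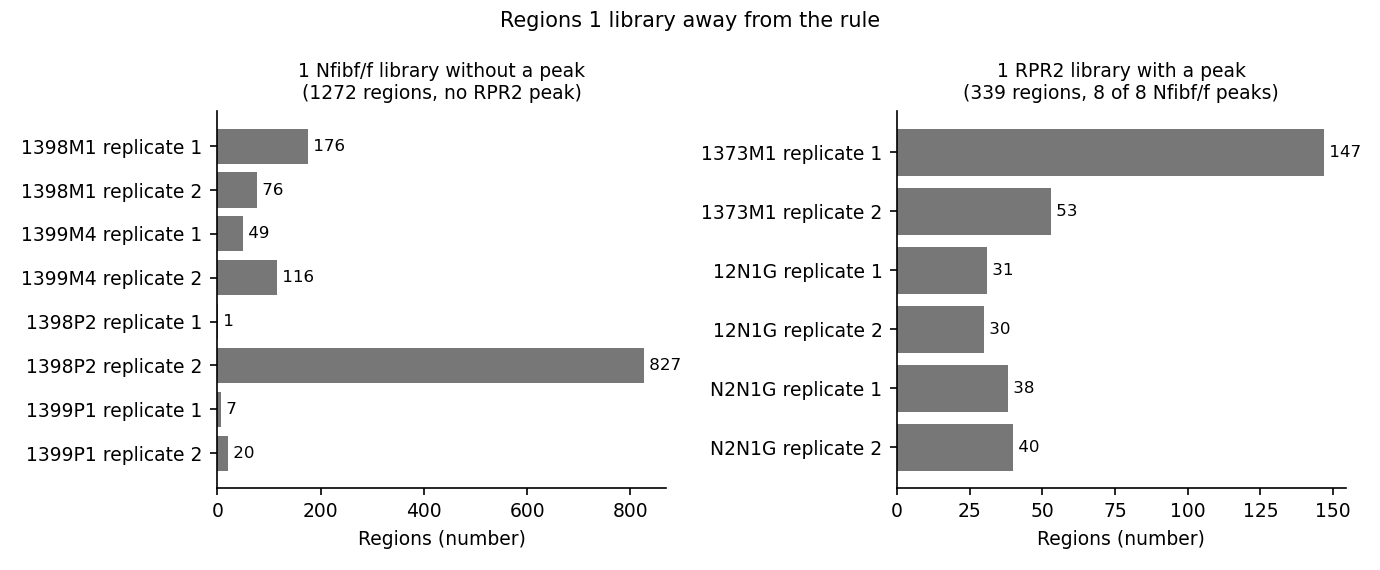
Regions that missed the rule by 1 library. Horizontal bars count regions by the Nfibf/f library without a peak (left, 1272 regions) and by the RPR2 library with the only RPR2 peak (right, 339 regions); 1398P2 replicate 2 accounts for 827 on the left and 1373M1 replicate 1 for 147 on the right.

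Absence of a peak in the RPR2 lines means absence at the depth of those libraries. The weakest peaks called there stood at 6.22 to 7.23 times the mean coverage of the library, the lowest in each list. The members' own peaks had a median height of 29.5 times the mean coverage of their Nfibf/f library. In 731 of the 763 (95.8%) the median height was above 14.5 times, which is 2 times the highest of those RPR2 limits, and in 333 (43.6%) all 8 libraries were above it. The rule itself required a called peak in all 8 Nfibf/f libraries, and these shares were not set beside those of other regions. The limit is higher where the local background is high, and heights in the RPR2 lines below the call were not measured. The heights of the members therefore do not show how low the RPR2 signal was.

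Rank percentile gives the place of a region's strongest peak by fold enrichment among all peaks of that library, from 0 for the lowest to 100 for the highest. The deposited fold enrichments are ratios to the local background of their own library, so ranks and not folds were set side by side. A rank by fold is not the height of a peak, since the fold falls as the local background rises. The members were of middle rank. Their mean ranks over the 8 libraries ran from 8.03 to 96.9 with a median of 57.9. The median was 75.3 for regions open in all 4 Nfibf/f lines and 47.0 for RPR2-only regions in their own 6 libraries. Above the middle of the list were 533 (69.9%), above rank 75 were 117 (15.3%) and below rank 25 were 23. Of the regions open in all 4 Nfibf/f lines, 86.9% were above the middle and 50.6% above rank 75.

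The lines did not rank the members alike. The median rank was 44.9 and 47.8 in the 2 libraries of 1398M1, 62.9 and 60.3 in 1399M4, 75.6 and 47.5 in 1398P2, and 71.3 and 68.7 in 1399P1. Replicates thus lay close together in every line but 1398P2, where the library with the shorter list was far below its partner. The median absolute difference between replicates over the members was 24.99 points in 1398P2, against 9.94 (1398M1), 7.96 (1399M4) and 8.83 (1399P1). Across the 763 members, Spearman's rho between replicates was 0.38 in 1398P2, 0.84 in 1399M4 and 0.79 in both other lines, given as a description since the regions share libraries. Between lines it was 0.22 (1398M1 and 1399M4) to 0.65 (1398P2 and 1399P1), against 0.70 to 0.81 over regions open in all 4 Nfibf/f lines. The SD of the 4 line means had a median of 16.3 points over the members and 8.63 over regions open in all 4 Nfibf/f lines. Those comparison regions ranked higher, with a median of 75.3 against 57.9. What part this has in their higher rho and smaller SD was not tested. The lowest of the 4 line means was that of 1398M1 in 398 members (52.2%), and the highest that of 1399P1 in 313 (41.0%). This order was not counted over regions open in all 4 Nfibf/f lines, so it is not shown to be particular to the members.

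**Figure D3:**
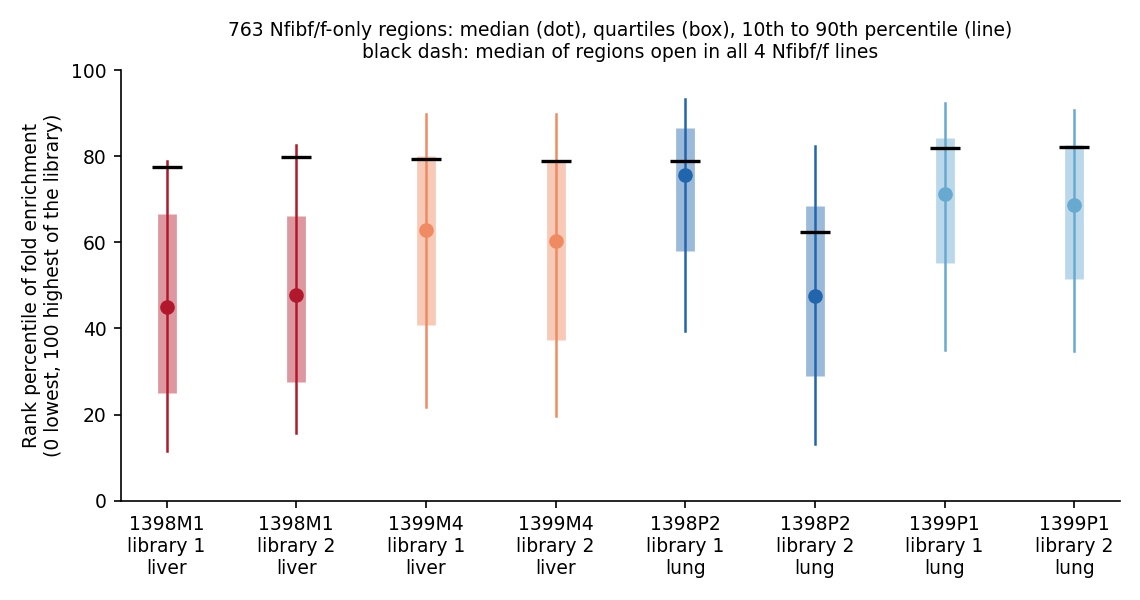
Rank percentiles of the 763 Nfibf/f-only regions in each Nfibf/f library (0 lowest, 100 highest). Dots are medians, boxes quartiles, lines the 10th to 90th percentile of regions and black dashes the median of regions open in all 4 Nfibf/f lines; the members' median runs from 44.9 in 1398M1 replicate 1 to 75.6 in 1398P2 replicate 1 and stays below the dash in all 8 libraries.

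The region in Dazl, which encodes an RNA-binding protein of germ cells, ranked highest (chr17:50292622-50293236, 615 bp), with ranks of 99.5 and 93.3 in 1398M1, 99.8 and 99.7 in 1399M4, 94.9 and 95.6 in 1398P2 and 99.4 and 92.8 in 1399P1. Every library had it among its highest-ranked peaks, and the 8 summits lay within 29 bp. The region in Pde1c, a calmodulin-dependent phosphodiesterase of cyclic nucleotides, followed at a mean rank of 95.05 (chr6:56445096-56445772), from 87.7 to 99.6 over the libraries. The mitotic kinase gene Nek6 held the third (chr2:38535973-38536938, mean rank 94.9).

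Lrp6, a co-receptor for WNT ligands, held 2 members. The first (chr6:134452743-134453257) ranked 90.6 and 97.9 in 1398M1, 96.2 and 97.8 in 1399M4, 91.8 and 80.99 in 1398P2 and 96.3 and 97.2 in 1399P1. It was high in all 4 lines. The second, 1087 bp wide (chr6:134520876-134521962), had a mean rank of 49.2 and no base that all 8 libraries covered.

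Dcaf13, a substrate receptor of a ubiquitin ligase, had a mean rank of 92.6 (chr15:39146810-39147422) and showed the split between lines, with 74.6 and 79.4 in 1398M1 and 96.8 to 98.8 in the other 6 libraries. Other regions among the 10 highest lay 37575 bp from Rad54b, a gene of homologous recombination (mean rank 91.2), in Dse, a dermatan sulfate epimerase (90.8), in Fras1, an extracellular matrix protein (90.7), and in AW554918 (90.7). Their lowest single values were 85.5, 82.1, 72.3 and 87.4. At the other end, the regions in Trib1 (chr15:59652755-59653347), in Xkr6 and at Abi3 and Phospho1 had the lowest mean ranks, 8.03, 8.68 and 10.2. Their heights were 33.5 to 92.1, 23.3 to 84.65 and 9.86 to 25.6 times the mean coverage, against a median of 29.5 over the members.

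Of the 10 highest-ranked members at gene ends, Dazl and Dcaf13 are described above. The others, by mean rank, were at the olfactory receptor gene Olfr154 (89.8), Sptlc1, a subunit of serine palmitoyltransferase (85.2), Arpc5l, a subunit of the actin-branching ARP complex (83.3), Gm31160 (80.0), Ssu2 (78.4), Arhgef38 (74.7), the primase subunit Prim2 (73.0) and Sdhd, a subunit of succinate dehydrogenase (71.4). A gene end here is either end of the gene, since the gene table gives no strand. The Arpc5l region ranked 50.9 and 63.6 in 1398M1 and 84.6 to 97.7 in the other 6 libraries.

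With strand known, 35 members (4.59%, 3.32 to 6.31%) overlapped a listed promoter window, 250 bases before to 50 after a transcription start, against 1.87% of RPR2-only regions (1.29 to 2.70%) and 49.6% of regions open in all 7 lines. Over regions open in at least 1 line the share was 11.0%. The windows over members belonged to 37 genes, 20 protein-coding and 17 long non-coding. Their mean ranks ran from 21.7 to 80.0 with a median of 54.3. In 23 of the 35 the line with the lowest mean was 1398M1, against 398 of all 763 members. Of the 20 protein-coding genes, 8 had a second listed promoter more than 1 kb away, which had a peak in all 14 libraries in 5.

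Arhgef38 and Arhgef2 led the protein-coding promoters. Arhgef38 ranked 25.7 and 46.4 in 1398M1, 91.8 and 92.2 in 1399M4, 78.6 and 82.3 in 1398P2 and 89.4 and 91.2 in 1399P1. Arhgef2, whose product is bound to microtubules, ranked 44.1 and 34.8 in 1398M1, 82.9 and 93.6 in 1399M4, 82.3 and 75.1 in 1398P2 and 89.3 and 82.6 in 1399P1. In both, 1398M1 lay below all 6 libraries of the other lines, which did not overlap it. Stx1a, a syntaxin of neurotransmitter release, was more even, at 49.9 and 66.8 in 1398M1, 77.6 and 76.9 in 1399M4, 79.6 and 53.4 in 1398P2 and 67.4 and 58.2 in 1399P1.

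Some promoters near immune genes were members too. Naip2, a receptor for bacterial proteins, had a mean rank of 65.2. One region touched the windows of both Bco2, a carotenoid-cleaving enzyme, and Il18, a cytokine, with 67.7 and 84.5 in 1398M1, 11.4 and 14.7 in 1399M4, 91.2 and 54.9 in 1398P2 and 91.4 and 93.1 in 1399P1, so 1399M4 alone was low. Tnfrsf14, a receptor of the tumour necrosis factor family, had a mean rank of 54.0 and Oas1g, an oligoadenylate synthetase gene, 52.3. The immune genes were picked out after their values were seen. Gsn, the actin-severing protein gelsolin, had a mean rank of 58.0, but no base of its region was covered by all 8 libraries.

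Among protein-coding genes, the promoter members with the lowest ranks were at Krt7, Slc5a5, Nfix, Olfm2, Rab19 and Rnh1. Their mean ranks were 32.7, 28.9, 24.1, 23.1, 22.1 and 21.9. Krt7, an epithelial keratin gene, shares its region with the non-coding Gm671. Slc5a5 encodes an iodide transporter and Rnh1 a ribonuclease inhibitor. The Slc5a5 region touched its window but covered 0 of the 250 bases before the start. Krt7 ranked 0.859 and 0.584 in 1398M1, 33.5 and 55.3 in 1399M4, 30.8 and 35.6 in 1398P2 and 50.1 and 55.1 in 1399P1. In 1398M1 its peaks were thus among the lowest-ranked of the list.

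**Figure D4:**
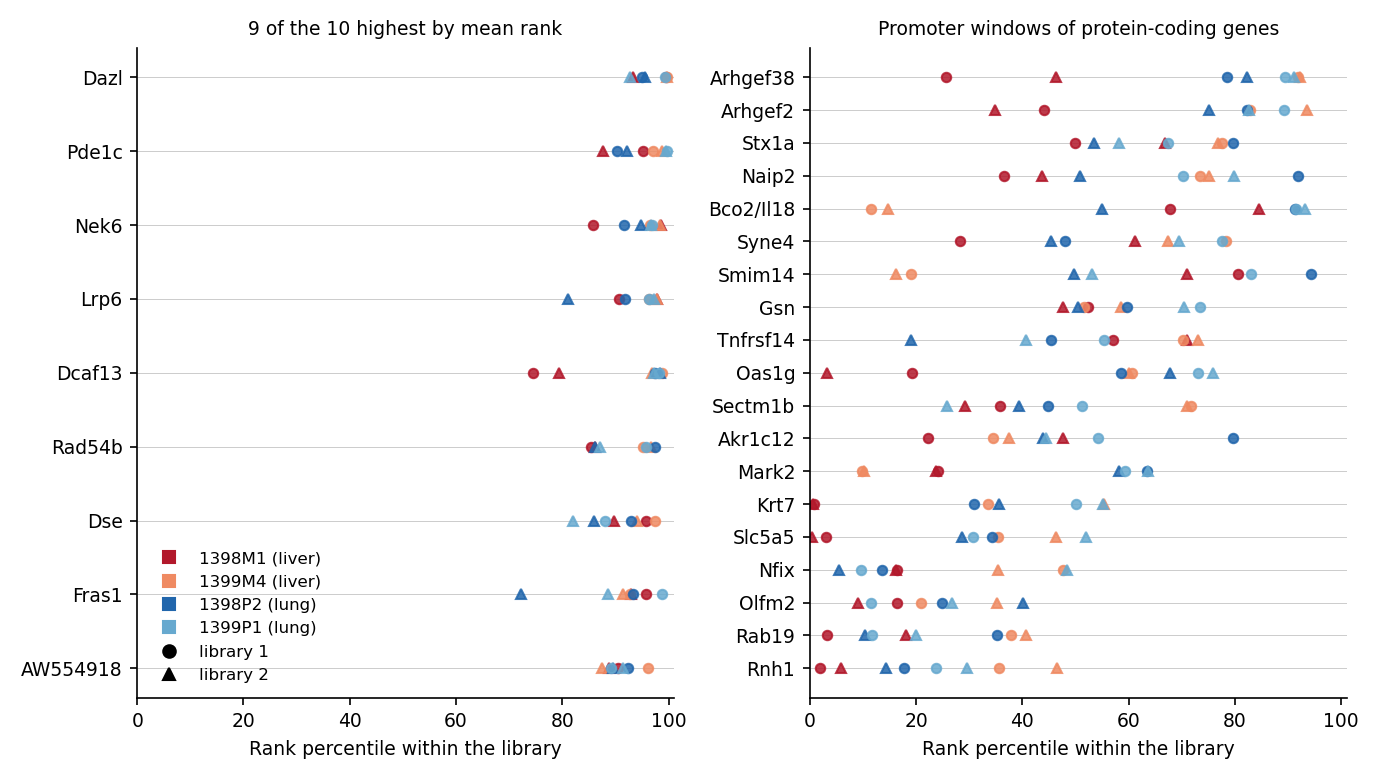
Rank percentile within the library for 9 of the 10 members with the highest mean rank (left) and for the 19 members over promoter windows of protein-coding genes (right). Each point is 1 library, colours give the line and shapes the replicate; 1398M1 lies lowest at Dcaf13, Arhgef38 and Arhgef2, and 1399M4 lies lowest at Bco2 and Il18.

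In sequence the 37 promoter windows were poor in CpG, the dinucleotide that marks most promoters of broadly used genes. They had a median of 5 CpG per 300 bases (quartiles 2 and 8), against 23 (16 and 31) for windows over regions open in all 7 lines, 3.5 for RPR2-only windows and 7 for all 32619 windows. Their median GC content was 53%, against 62.7% and, over all windows, 53%. Both strands were searched for 13 motifs, allowing overlaps. The full NFI site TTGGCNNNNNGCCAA was in 0 of the 37 windows and in 0.0368% of all windows, and the single arm TTGGCA in 4 (10.8%), against 14.1% of all windows. The motif CAGCTG, an E-box bound by proneural factors, was in 9 (24.3%, against 16.4% of all windows), the TEAD motif GGAATG in 9 (24.3%, against 14.6%), the AP-1 motif TGANTCA in 5 (13.5%, against 7.85%) and the GATA motif AGATAA in 5 (13.5%, against 11.2%). The POU octamer ATGCAAAT and the FOX motif TGTTTAC were in 2 each (5.41%, against 1.75% and 3.67%), and the RFX motif GTTGCCAT and the ETS motif CCGGAAGT in 1 each (2.70%, against 1.36% and 3.91%). The E-box CATATG (3.82% of all windows), the CRE TGACGTCA (1.80%) and the NRF1 motif GCGCATGC (2.72%) were in 0. Among the 28 RPR2-only windows CAGCTG (35.7%), AP-1 (17.9%), the single NFI arm (21.4%), FOX (7.14%) and RFX (14.3%) had higher shares than in the 37, and TEAD (10.7%), GATA (0%), POU (0%) and ETS (0%) lower ones. The whole window was searched, also where the member covered only part of it, so a match can lie outside the member. That was so for the only RFX match, at Il18, where the member covered 9 of the 250 bases before the start. A match is a string of letters in this window and not a bound site, and with 37 windows a single match moves a share by 2.70 points. The distal members, most of the set, were not searched, as no genome sequence was used here.

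Within 10 kb of 641 of 21627 protein-coding genes (2.96%) lay at least 1 Nfibf/f-only region. Of these genes, 613 had 1, 27 had 2 and Myo16 had 3, and 212 of the 763 members had no protein-coding gene within 10 kb. These genes were long, with a median of 57.3 kb against 17.3 kb for all, and 437 of the 641 (68.2%) had an end with peaks in all 14 libraries, against 51.4% of all genes and 76.9% of genes with a region open in all 4 Nfibf/f lines. An RPR2-only region lay at 68 of the 641 as well (10.6%, against 4.14% of all genes). Whether any member acts on the gene it lies in was not measured.

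Among families grouped by the start of the gene symbol, myosins, the actin-based motors, had the highest share of genes with a member, at 7 of 39 (17.9%, against 2.96% of all genes). They held 9 members, which is 11.8% of the 76 regions open in all 4 Nfibf/f lines at these genes, against 3.06% over all genes and 13.3% (4 of 30) for olfactory and vomeronasal receptors. RPR2-only regions were also more frequent at these genes, at 4 of the 39 (10.3%, against 4.14% of all genes). The myosin genes had a median length of 75.5 kb. The same 7 genes were called without 1398P2 replicate 2, where the share over all genes was 5.44%. Families were chosen with results of these data known, and their shares were not tested.

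The 3 regions of Myo16, an unconventional myosin, lay within its body (chr8:10435012-10436195, chr8:10480583-10481341 and chr8:10513379-10514112). The middle one had the highest mean rank. It ranked 75.8 and 74.3 in 1398M1, 66.1 and 62.0 in 1399M4, 95.3 and 75.3 in 1398P2 and 94.9 and 85.6 in 1399P1. The lung libraries thus stood above the liver libraries except 1398P2 replicate 2, which lay within their range. The first had no base that all 8 libraries covered. Further myosin genes were Myh9, a heavy chain of nonmuscle myosin (mean rank 58.1), Myo10, a motor of filopodia (57.3), Myo18a (64.9), Myo1h (45.9) and Myo5b, a motor of vesicle transport (49.1). The region counted for Myo1h lay in the gene Kctd10. Myo18a ranked 2.75 and 14.7 in 1399M4 and 62.8 to 96.6 in the other 6 libraries. The Myo5b region had no base common to all 8 libraries.

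Other families stood closer to the background. Receptor-type tyrosine phosphatases had 3 of 21 genes (14.3%), phosphodiesterases 3 of 26 (11.5%) and ABC transporters 4 of 50 (8%). All are families of long genes, with medians of 64.8 to 151 kb. RPR2-only regions lay at 5 (23.8%), 4 (15.4%) and 3 (6%) of their genes, against 4.14% of all genes. Solute carriers had 14 of 389 (3.60%), ubiquitin enzymes 8 of 243 (3.29%) and zinc finger genes 12 of 458 (2.62%), near the 2.96% of all genes. Cadherins and protocadherins had 0 of 98, and semaphorins, plexins, ephrins and Eph receptors 0 of 51, where RPR2-only regions lay at 9 and 11 genes. Without 1398P2 replicate 2 these became 4 of 98 and 3 of 51, so the zeros depended on that library. Solute carriers became 31 (7.97%), ubiquitin enzymes 13 (5.35%) and zinc finger genes 17 (3.71%), against 5.44% of all genes. Olfactory and vomeronasal receptor genes had 5 of 1465 (0.341%), 2 of them, Olfr154 and Olfr1006, at 1 shared region. Leading members of these families were in Zfp568 (mean rank 86.0), Zfp469 (85.2), Usp37, a deubiquitinase (89.5), Fbxl18 (71.9) and Slc35f3 (61.0).

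Genes with 2 members included Bfsp1, a filament protein of the lens, Gstcd, Rbpms, an RNA-binding protein, Mgat5, a glycosyltransferase, Rras2, a small GTPase, Nsf, an ATPase of membrane fusion, Mast4, Bace2, a relative of beta-secretase, and Babam2. The Bfsp1 pair differed, with mean ranks of 63.7 and 81.8, and the second region was at 64.0 and 52.4 in 1398M1 and 96.4 and 97.2 in 1399M4. The Nsf pair was alike, at 68.1 and 64.2. The second Bace2 region, 1389 bp wide, had no base that all 8 libraries covered.

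Among gene lists of this cancer and its possible neighbours, 7 of 156 genes (4.49%) had an Nfibf/f-only region, against 2.96% of all genes. Of 20 genes of axons and neuron projections, 4 had one (20%), and their median length was 348 kb. RPR2-only regions lay at 7 of the same 20. Map2, a microtubule protein of dendrites, ranked 22.3 and 66.2 in 1398M1, 96.1 and 86.8 in 1399M4, 82.9 and 49.1 in 1398P2 and 97.8 and 93.7 in 1399P1. The guidance gene Ntn1, which encodes a netrin, had a mean rank of 64.4, with 37.2 and 6.004 in 1399M4 and 66.2 to 89.8 in the other 6 libraries. The receptor gene Robo2 had a mean rank of 62.8 and its ligand gene Slit3 41.1, and the 1739 bp region of Slit3 had no base common to all 8 libraries. Without 1398P2 replicate 2 the list had 7 of 20, with Cntnap2, Dscam and Mapt added.

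Neither list of neuroendocrine genes held a member. The lists of neuroendocrine transcription factors (20 genes), neuroendocrine markers (16), epithelial and mesenchymal state genes (16), the MYC family (6), tuft-like state genes (10), hepatocyte markers (12), lymphocyte and myeloid markers (12) and fibroblast and endothelium markers (12) had 0 each. At the background share of 2.96% a list of 20 genes is expected to hold few or none, so these zeros say little. Genes of secretory granules and vesicles outside the lists, picked out after their values were seen, did have 1 member each, namely Ptprn (mean rank 38.4), Ptprn2 (66.2) and the vesicular monoamine transporter Slc18a1 (58.9). Without 1398P2 replicate 2, St18, Ncam1, Cdh1, Ptgs1 and Vwf were added to 5 of these lists, and Rbl2 to the targeted genes. Among the NOTCH, YAP and REST genes Notch2, a NOTCH receptor, had 1 member (mean rank 54.5), and among lung epithelium markers Abca3, a lipid transporter of surfactant-producing cells (65.7).

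Nfix was the only one of the 4 NFI genes with a member. Its region was the widest of the set (chr8:84770439-84772965, 2527 bp) and one of the lowest-ranked. The ranks were 16.4 and 16.3 in 1398M1, 47.7 and 35.4 in 1399M4, 13.5 and 5.41 in 1398P2 and 9.69 and 48.4 in 1399P1. By height it was not low, at 15.8 to 42.6 times the mean coverage, against a median of 29.5 over the members. The highest summits of the libraries lay up to 1975 bp apart, and no base was covered by all 8. Nfix also had 3 regions open in all 7 lines and 1 RPR2-only region. The next widest members, in Ptk2b (2164 bp), Vmp1 (1985 bp), Arhgef2 (1969 bp) and Man2a1 (1964 bp), had mean ranks of 46.2, 50.0, 73.1 and 52.4, and Ptk2b likewise lacked a base common to all 8 libraries.

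The members were spread over all 20 chromosomes, from 9 on X to 64 on chromosome 2. As a share of regions open in at least 1 line they ran from 0.363% on X to 0.904% on chromosome 7. Another member lay within 100 kb of 109 (14.3%), and the median distance to the next was 631407 bp. The nearest region open in all 7 lines was a median of 29784 bp away. Raised local background in all 8 Nfibf/f libraries was found in 5 of 1800 bins of 1 Mb, and 1 of them, chromosome 4 from 148 to 149 Mb, held 7 members, among them the 2 of Casz1, a zinc finger transcription factor. There the median background, in multiples of the mean coverage, was 2.11 to 2.87 in the RPR2 and 3.79 to 9.36 in the Nfibf/f libraries. What part the raised background has in these 7 was not tested, and 735 of the 763 members lay in the bins that could be assessed.

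Ranks were compared between liver and lung lines. The comparison asks whether regions shared by the 4 Nfibf/f lines ranked higher in metastases or in primary tumors. Limma used the log-odds of the rank in each library, averaged over the 2 libraries of a line (2 liver lines against 2 lung lines). A single extreme rank can therefore weigh heavily. Fitted over all 21732 regions open in the 4 lines, it called 0 regions at a Benjamini-Hochberg adjusted p under 0.05 (0%), and 0 of the 763 members. At an unadjusted p under 0.05 it had 793 regions (3.65%), of which 93 were members (12.2% of the 763). With 2 lines a side the precision was low, and the lowest adjusted p of a member was 0.998.

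By direction the members leaned to the lung. The rule also required them to be closed in the 3 RPR2 lines, all from metastases, and the comparison regions had no such filter. The 2 sets were thus not chosen alike. What part this has in the lean, or in the share at an unadjusted p under 0.05, was not tested. The liver lines ranked lower in 556 of the 763 (72.9%), against 41.7% of all 21732 regions, and the median difference on the log-odds scale was -0.54 against 0.13. Both liver lines were below both lung lines in 215 members (28.2%, against 10.5%) and above both in 42 (5.50%, against 19.6%). The size rested on the 2 unequal libraries of 1398P2. Without its replicate 1 the liver lines ranked lower in 446 members (58.5%, against 34.5%), with a median of -0.25, and 27 members had an unadjusted p under 0.05. Without its replicate 2 they ranked lower in 640 (83.9%, against 52.6%), with a median of -0.85, and 150 members had an unadjusted p under 0.05. By line number, the liver line ranked lower in both pairs in 333 members (43.6%) and higher in both in 88 (11.5%). These pair counts were not made over all 21732 regions.

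**Figure D5:**
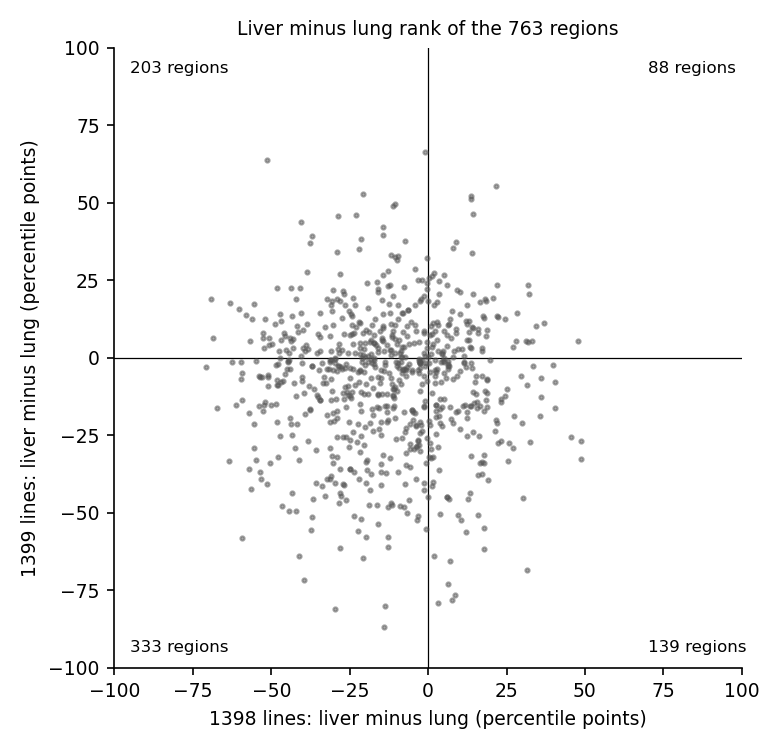
Liver minus lung difference in rank percentile for each of the 763 Nfibf/f-only regions, in the lines numbered 1398 (horizontal) and 1399 (vertical). Each point is 1 region; 333 lie at lower left (lower in liver in both pairs), 88 at upper right, 203 at upper left and 139 at lower right.

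The members with the smallest p for a lower rank in liver were 12511 bp from Baz1a, a chromatin remodelling gene, in Glyr1 and 28220 bp from Samd5. Near Baz1a the ranks were 54.3 and 55.9 in 1398M1, 56.01 and 61.2 in 1399M4, 99.9 and 72.2 in 1398P2 and 98.4 and 95.3 in 1399P1, and the liver and lung libraries did not overlap. The log-odds difference was -3.43 (SE 0.55, limma adjusted p = 0.998). Near Samd5 the liver lines ran from 7.68 to 44.8 and the lung lines from 73.4 to 93.7, with -3.02 (SE 0.52, limma adjusted p = 0.998). For a higher rank in liver they were 173136 bp from Tmem132c, 270 bp from Ly6g6d and 7381 bp from Tshz2. Their differences were 1.93 (SE 0.67), 1.88 (SE 0.72) and 1.65 (SE 0.65). None passed the adjusted threshold.

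Between the 1398 and the 1399 lines limma called 0 of 21732 regions at an adjusted p under 0.05 (0%), with 1167 (5.37%) at an unadjusted p under 0.05, of which 108 were members (14.2% of the 763). The 1398 lines ranked lower in 524 members (68.7%), close to the 71.1% of all regions, with a median log-odds difference of -0.51 against -0.32. Here too 1398P2 set the size. Without its replicate 2 the 1398 lines ranked lower in 439 members (57.5%, against 59.8%), with a median of -0.21, and 68 members had an unadjusted p under 0.05. Without its replicate 1 they ranked lower in 600 (78.6%, against 74.8%), with a median of -0.81 and 118 members. The smallest p among members were lower values of the 1398 lines at 3 regions. They lay in Atg10, an autophagy gene, in Rims1, a protein of the synaptic active zone, and 1058595 bp from Nmbr, the nearest gene. Atg10 ranked 15.3 and 38.1 in 1398M1, 67.3 and 8.24 in 1398P2, 89.2 and 92.8 in 1399M4 and 85.8 and 78.9 in 1399P1, a log-odds difference of -2.92 (SE 0.52, limma adjusted p = 0.878). The 1398 and 1399 libraries of this region did not overlap. Higher in the 1398 lines were regions in Actr1a, a subunit of dynactin, Vps11, a gene of lysosomal sorting, and Rab38, a small GTPase, with differences of 2.35 (SE 0.70), 1.65 (SE 0.52) and 1.55 (SE 0.51). None of these passed the adjusted threshold either.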

How the data were processed

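Peak lists of 14 ATAC-seq libraries from 7 cell lines were used, 1 list per library. The submitters' processing notes name cutadapt 2.10, Bowtie2, Picard, SAMtools and MACS2 and the builds mm10 and GRCm38. Their settings, filters and any read shift were not given in the sources used here. Each summit has a fold enrichment over local background, a ratio that the authors deposited. Also deposited were its p-value and q-value, both as -log10, and no -log10 q was under 1.30 (a q of 0.05). The score deposited by the authors was not used.

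Summits of a peak were collapsed, intervals were merged at 1 bp of overlap, and a region was open in a line with peaks in both libraries and closed with none. Read totals were not given, so pileup and local background were solved from fold and p under the Poisson model at 1192085 summits whose -log10 p was below 250, where 100% of pileups came out whole within 0.02. The lowest background of a library, its mean fragments per base, served as depth and sets which peaks could be called. Genes and promoter windows were taken from RefSeq (GRCm38.p6), and lncRNA and protein-coding windows were matched by position (32619 windows of 26794 genes). The log-odds of the rank percentiles were averaged per line and compared with limma 3.58.1 in R 4.3.3, with a trend and Benjamini-Hochberg adjustment over 21732 regions. The other steps used Python 3.11.15, numpy 2.4.6, pandas 2.3.3 and scipy 1.17.1. Intervals are Wilson 95% intervals. The solved pileups, the region rule and the limma fit were tested on simulated data.

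The members and all lists were chosen with earlier results of these data known. Named regions were the 10 with the highest mean rank, the 10 highest at gene ends, genes with 3 members and 10 genes with 2, all list genes with a member, the 2 highest of each of the 6 families with the most genes, the 3 smallest p per direction in each contrast, the 5 widest and the 3 lowest. Promoter windows and their motifs, common stretches and further myosin genes were added after the data were seen. Some genes and gene families are not reported here. A motif search at the summits of all members needs a genome and was not run. Alternatives changed the q threshold, the overlap, the number of peaks, the intervals, the libraries and the lines used.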

Additional observations from a re-analysis of the deposited data

Results flagged for a closer look

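Among the 4 Nfibf/f lines, 1398P2 stood apart in 3 measures of the members: the median difference between its replicates (24.99 percentile points), Spearman's rho between its replicates over the members (0.38) and the members as a percent of its open regions (2.64%, against 1.15 to 1.31% in the other lines). Its replicate 2 has the shortest peak list. In 1398M1 the line mean was far below the other 3 lines at Dcaf13 (77.0) and at Arpc5l (57.3). Such gaps were looked for in 23 sets of 4 lines and found in 5, and chance alone gives about 1 in 20. The 3 measures of 1398P2 use the same 2 libraries. The 5 are therefore not independent, and that rate is only a rough guide.

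The liver minus lung difference had opposite signs in the 2 line numbers, with no overlap of the libraries within a pair, at 2 regions. These were at Ssu2 (13.6 points in the 1398 lines and -31.7 in the 1399 lines) and at Arhgef38 (-44.4 and 1.70). The 1.70 points at Arhgef38 were below the median replicate difference of 1399M4 (7.96) and 1399P1 (8.83), so they show no clear change in the 1399 lines. The difference between the pairs was not tested.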

How the results depend on the processing

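The number of Nfibf/f-only regions (763) was 729 at a -log10 q of at least 2, 791 with windows of 100 bp around summits and 756 without bins of raised background. It was 231 where only peaks covering at least 50% of the region counted, and 424 with the same number of peaks in every library. Both settings also discard some RPR2 peaks. It was 764 to 1590 when 1 library was left out, highest without 1398P2 replicate 2. Replicate 1 alone gave 2951 and replicate 2 alone 1409. Without a line it was 1608 (1373M1), 1689 (1398M1), 1701 (1398P2) and 1446 (1399M4), and 803 to 879 without 1399P1, 12N1G or N2N1G.

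The share within 1 kb of a gene end (5.77%) was 5.42 to 6.31% without 1 library, 9.09% with the cover of 50% and 9.91% with equal peak numbers, and 2.88% and 17.6% for distances of 100 bp and 5 kb. The share inside a gene (64.9%) was 60.1 to 65.9% without 1 library and 59.4% with equal peak numbers. The median width (780 bp) was 725.5 to 785.5 bp, and 713 and 826.5 bp with the cover and with equal numbers. The promoter share (4.59%) was 4.41 to 5.17%, and 6.37% with equal numbers. Genes with a member fell from 641 to 478 with the gene body alone.

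Rank contrasts called 0 regions under every alternative but 1, in which ranks of -log10 p gave 6 regions for liver against lung, 0 of them members, and the cause was not tested. The replicate numbers pair libraries by number only: the correlation of replicate differences between lines was -0.088 to 0.24, and the fit with a replicate block called 0 regions in both contrasts, with 1026 and 1400 at an unadjusted p under 0.05. The planned motif shares at summits were not run. Closed means closed at the depth of the RPR2 libraries, and the part of depth in the counts was not tested.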
